A study of Mus musculus with 6 samples.

Results

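The GABA-A receptor subunit genes Gabra2, Gabra3, Gabra4, Gabra5, Gabrb1, Gabrb2 and Gabrd were followed in mouse cerebral cortex labelled Cux2 knock-out and in control cortex. Every non-control array probe that the array files name with one of these 7 symbols was taken, which gave 12 probes of the 41174 measured, for 7 of 27670 gene names. The tested samples were 3 male cortices titled ko (numbers 53, 48 and 54), with the genotype label Cux2-/-. The other 3 male cortices (numbers 15, 62 and 16) are titled WT, but their genotype label reads Cux2+/-, so they are called controls here and may carry 1 altered allele. Age, strain and how the allele was made are not given in the sources used here. RNA of each sample was amplified from an oligo-dT primer, labelled with Cy3 and hybridised to its own 1-colour Agilent array, and whether each sample was a separate animal is not stated. The p-values therefore cover only the variation among the 6 samples, which may be partly technical.

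GABA-A receptors are pentameric chloride channels opened by GABA, the main inhibitory transmitter of the cortex. Alpha and beta subunits form the sites that bind GABA. A gamma subunit completes most synaptic receptors, while delta replaces gamma in receptors outside the synapse that carry tonic inhibition. Which alpha subunit is present sets drug sensitivity and place in the cell. Cux2 is a homeodomain factor of upper-layer cortical neurons, and the comparison asks which transcripts differ when both copies are labelled as lost.

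All values below are log2 of the processed spot signal minus the 75th percentile of the same array, so 0 is a probe at that percentile. Between 58.6% and 68.1% of probes were well above background on the knock-out arrays, against 62.7% to 72.8% on the control arrays, and the number of arrays limits the precision. The arrays lay on 2 slides, with ko 48, ko 54 and control 15 on slide 1 and ko 53 with controls 62 and 16 on slide 2. All 7 markers of cortical excitatory neurons were well above background on all 6 arrays. Of 5 cerebellar markers, Gabra6, the alpha subunit of granule cells, was well above background on none and Cbln3 on 1, while Pcp2, Barhl1 and En2 were on all 6 and stood 0.28, 0.22 and 0.19 above control in knock-outs (limma adjusted p = 0.565, 0.610 and 0.707). In whole tissue, fewer cells of a type and less RNA per cell cannot be told apart. The brighter Cux2 probe stood at -0.03 ± 0.02 in knock-outs and 0.09 ± 0.16 in controls (SD, n = 3 each), and where it lies relative to the altered part of the gene is not given here, so it checks nothing about the labels.

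The promoter regions of the subunit genes were searched for short sequences. A CCAAT sequence is shown because some Cut-family factors have been described as proteins that displace CCAAT-binding factors. RefSeq windows (GRCm38.p6), each 300 bases long with 250 bases before and 50 bases after an annotated start, were found for 6 of the 7 genes, all but Gabrd. CCAAT or its reverse complement ATTGG was present in 6 of their 10 windows, which belong to 5 of the 6 genes, and in 37.4% of all 32851 windows. No test was made of this difference, and windows of the same gene can overlap. The share over all genes was not counted, and a gene with several windows has more chances of a match. The Cut homeodomain sequences ATCGAT and ATCAAT were searched on both strands and were in 0 of the 10 windows of these genes, against 0.925% and 7.54% of all windows. Each line gives 30 bases on the strand of the gene, 5′ to 3′, with the match in capitals, and Gabrg1 is added as the neighbour of Gabra2 described further on.
Gabra2, chr5:71096015-71096044, minus strand: ggcttggccaggATTGGggtgggggataag
Gabra3, chrX:72656911-72656940, minus strand: tgacagctttgaATTGGatccacacttcta
Gabra4, chr5:71658405-71658434, minus strand: ctcttcccttcgCCAATacctcccaccgcc
Gabra5, chr7:57510180-57510209, minus strand: ccaaatatgcttCCAATgcccacaagcaac
Gabrb2, chr11:42420691-42420720, plus strand: agcactcctcccATTGGttttttttctcct
Gabrg1, chr5:70842727-70842756, minus strand: aagaaaatgtcaATTGGgctctgtccacag
The first printed match base lay at -183 for Gabra2, -114 for Gabra4, -138 for Gabra5 and -71 for Gabrb2, counted from the annotated start of that window. A second match in Gabra3 is not printed. These letters are a description and say nothing of binding.

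By signal, the member probes kept nearly one order in both groups. The Gabrd probe (A_51_P149623) averaged 4.06 ± 0.01 in knock-outs and 4.08 ± 0.20 in controls (SD, n = 3 each), and the Gabra4 probe (A_51_P393124) averaged 3.91 ± 0.04 in knock-outs (SD, n = 2) and 4.05 ± 0.15 in controls (SD, n = 3). On their arrays Gabrd lay at the 96.5 to 97.2 percentile of all probes and Gabra4 at the 96.5 to 97.0 percentile. In controls these 2 brightest member probes did not differ beyond their spread, and Gabra4 was ahead of Gabrd on control 15. On ko arrays 48 and 54 Gabrd stood at 4.06 and 4.07, above Gabra4 at 3.94 and 3.88. The Gabrb1 probe followed at 2.24 in knock-outs and 2.27 in controls. Next came the brighter Gabra2 probe at 1.49 in knock-outs and 1.45 in controls. The brighter Gabra5 and Gabra3 probes were 0.03 apart in control mean and changed places between arrays. The brighter Gabrb2 probe by array name stood lower, at -0.54 in knock-outs and -0.69 in controls. Of the 11 steps between neighbours in this order, 7 had control ranges that did not overlap.

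The order is one of probe signal and not of transcript amount, as probes of 1 gene show. Gabrb2, the beta subunit of the most common receptors, has 2 more probes that the array files call C030002O17Rik, a synonym of Gabrb2 in the RefSeq gene table. These averaged 4.34 ± 0.03 and 3.90 ± 0.12 in knock-outs, against 4.35 ± 0.18 and 3.95 ± 0.02 in controls (SD, n = 3 each). The control mean of the brighter probe named Gabrb2 was -0.69, so signals of this 1 gene differ widely by probe. The dimmer probe named Gabrb2 was well above background on none of the 6 arrays and was not tested. Control means of the 3 Gabra2 probes ran from 0.05 to 1.45, and the 2 Gabra3 probes stood at 0.74 and -3.63.

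**Figure D1:**
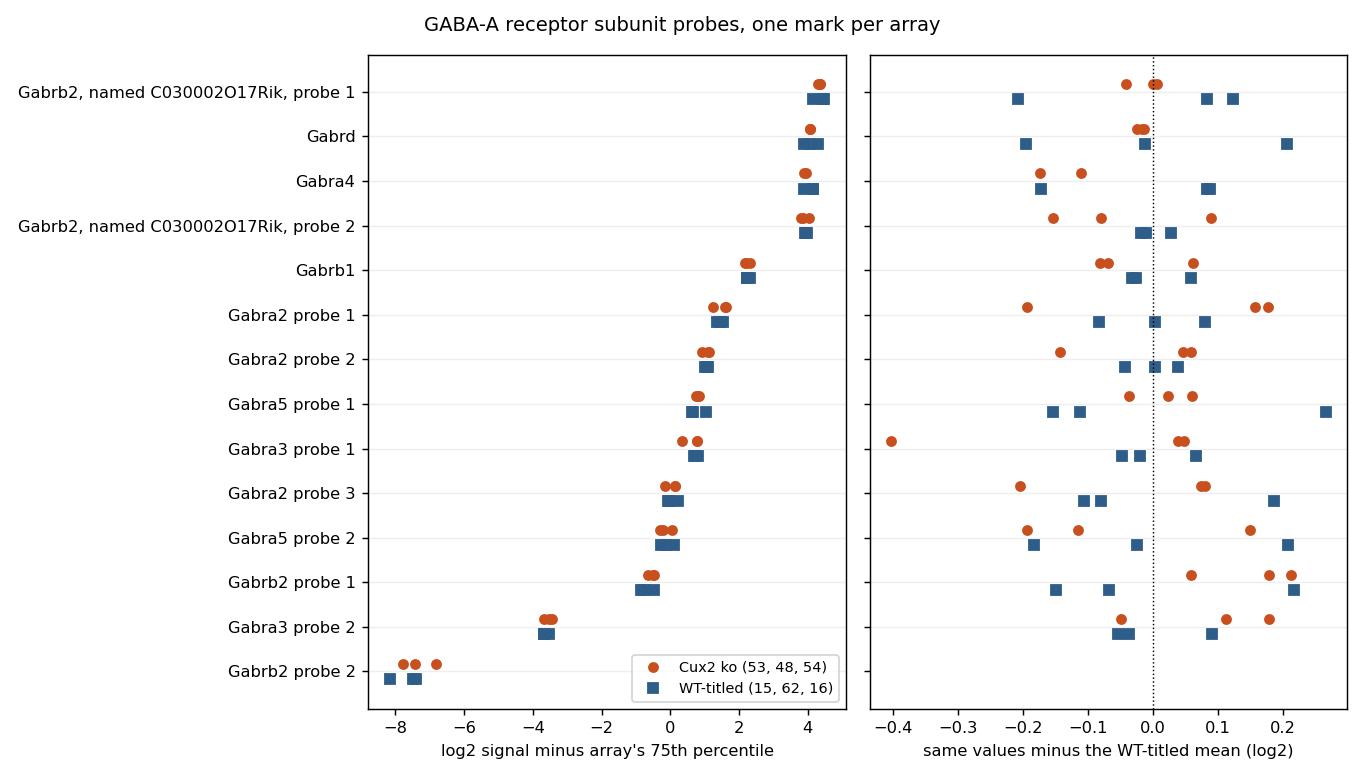
Signal of the 12 member probes and of both C030002O17Rik probes on each array (left, log2 processed signal minus the array's 75th percentile) and the same values minus the mean of the WT-titled arrays (right, log2, without the Gabrb2 probe that was not above background). Circles are Cux2 ko arrays and squares WT-titled arrays, rows run by control mean, and in every row the groups overlap.

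Delta and alpha 4 are the partners of tonic, extrasynaptic receptors, known best from thalamus, dentate gyrus and striatum. Gabrd stood at 4.07, 4.06 and 4.07 on ko arrays 53, 48 and 54, against 4.07, 4.29 and 3.89 on control arrays 15, 62 and 16. The knock-out values lay inside the control range and had an SD of 0.0057, which is exceeded in all but 0.368% of tested probes, while the control SD stood at the 70.2 percentile. The difference of -0.02 (95% interval -0.29 to 0.25) had a limma adjusted p = 0.985. Gabra4 stood at 3.94 and 3.88 on ko arrays 48 and 54, against 4.14, 4.14 and 3.88 on control arrays 15, 62 and 16. The spot on ko 53 carried a non-uniformity flag and was left out of the fit, and its value would have been 3.89. Gabra4 was thus high on controls 15 and 62 and level with the knock-outs on control 16. The difference was -0.14 (95% interval -0.43 to 0.15, limma adjusted p = 0.840). Without control 16 it was -0.23, again past no threshold.

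Markers of striatum, which lies next to the cortex and is rich in Gabra4, were highest on the same arrays. All 7 were well above background on all 6 arrays, and all 7 were lower on average in knock-outs, though none passed (limma adjusted p = 0.394 to 0.757) and the list was not tested. Their mean deviation was -0.36, -0.16 and -0.25 on ko arrays 53, 48 and 54, against 0.52, 0.50 and -0.26 on control arrays 15, 62 and 16. The highest controls for Gabra4 were the highest for this list, and the part of striatal tissue in the Gabra4 values was not tested. Thalamic markers stood between -0.15 and 0.07 on knock-out arrays and between -0.05 and 0.07 on control arrays. The mean deviation of 5 hippocampal markers was -0.31, 0.06 and 0.33 on ko arrays 53, 48 and 54. On control arrays 15, 62 and 16 it was 0.18, -0.02 and -0.24.

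Alpha 2, found at inhibitory synapses on the axon initial segment of pyramidal cells, was measured by 3 probes. Its brightest probe (A_51_P417507) stood at 1.60, 1.62 and 1.25 on ko arrays 53, 48 and 54, against 1.45, 1.36 and 1.53 on control arrays 15, 62 and 16. Ko 54 was the lowest array and the other knock-outs the highest, so the groups overlapped. The difference was 0.05 (95% interval -0.24 to 0.34, limma adjusted p = 0.962). The other Gabra2 probes differed by -0.01 (A_52_P336171) and -0.02 (A_52_P446146). Ko 54 was also the lowest of all arrays for the dimmest Gabra2 probe, at -0.16, but not for the middle one, at 1.11.

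Alpha 3 is known from synapses of the thalamic reticular nucleus and of monoaminergic neurons. Its brighter probe (A_52_P264550) stood at 0.78, 0.79 and 0.34 on ko arrays 53, 48 and 54, against 0.72, 0.69 and 0.81 on control arrays 15, 62 and 16. Only ko 54 lay outside the control range on the low side. The difference was -0.11 (95% interval -0.43 to 0.22, limma adjusted p = 0.917) and turned to 0.04 without ko 54. On ko 54 the mean deviation of 4 olfactory bulb markers was 2.37, against -0.98 and -0.70 on ko 53 and ko 48 and -0.40 to -0.07 on the controls. These 4 of the 5 listed markers were well above background on all 6 arrays, and their part in the low Gabra2 and Gabra3 values of ko 54 was not tested. The dimmer probe (A_52_P364645), with values from -3.68 to -3.45 in knock-outs and from -3.68 to -3.54 in controls, differed by 0.08 (adjusted p = 0.899).

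Alpha 5 carries tonic inhibition in hippocampus and in deep cortical layers. Its brighter probe (A_52_P143037) stood at 0.80, 0.74 and 0.83 on ko arrays 53, 48 and 54, against 1.04, 0.62 and 0.66 on control arrays 15, 62 and 16. Its dimmer probe (A_51_P151316) stood at 0.05, -0.21 and -0.29 on the same knock-outs, against 0.11, -0.28 and -0.12 on the same controls. Control 15 was the highest array on both probes. The differences were 0.02 (95% interval -0.29 to 0.32) and -0.05 (95% interval -0.38 to 0.28), with limma adjusted p = 0.989 and 0.962. Within slide 1, which holds control 15, the brighter and dimmer probes differed by -0.25 and -0.36, and within slide 2 by 0.16 and 0.25, so the direction changed between slides on both probes.

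Beta subunits hold the GABA site together with alpha. The Gabrb1 probe (A_51_P368757) stood at 2.18, 2.33 and 2.20 on ko arrays 53, 48 and 54, against 2.32, 2.23 and 2.24 on control arrays 15, 62 and 16. It had the narrowest interval of the members, -0.22 to 0.16 around a difference of -0.03 (limma adjusted p = 0.965). The brighter probe named Gabrb2 (A_52_P460687) stood at -0.48, -0.52 and -0.64 on ko arrays 53, 48 and 54, against -0.48, -0.84 and -0.76 on control arrays 15, 62 and 16. Controls 62 and 16 lay below all knock-outs and control 15 was as high as the highest of them. The difference was 0.15 (95% interval -0.13 to 0.43, limma adjusted p = 0.834), the lowest adjusted p of the members, and without control 15 it was 0.26 at adjusted p = 0.422. Both C030002O17Rik probes of this gene differed the other way, by -0.01 and -0.05 (adjusted p = 0.990 and 0.944). Averaged over its 3 tested probes, Gabrb2 differed by 0.03 (95% interval -0.16 to 0.22, adjusted p = 0.954 over genes).

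None of the 11 tested member probes passed an adjusted p of 0.05 in limma, against 33 of 25516 probes on the whole array (0.129%). At an unadjusted p under 0.05 it was 0 of 11, where 7.97% of all probes lay. The groups overlapped for all 11 probes, while 13.1% of all probes had groups that did not overlap. With 11 probes these counts are near the background and are no result about the members. The median difference was -0.02 (4 probes higher, 7 lower), with an all-probe median of 0.00, and the median size of the difference was 0.05, with 0.09 over all probes. No interval reached beyond a decrease of 26.0% or an increase of 34.5%, each a 95% interval for 1 probe. These limits hold for this scaling and background correction: on the log2 scale they are -0.43 and 0.43, against -0.65 at the low end with slide as a block, 0.71 at the high end without scaling between arrays, and -1.14 to 2.01 with normexp background correction.

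**Figure D2:**
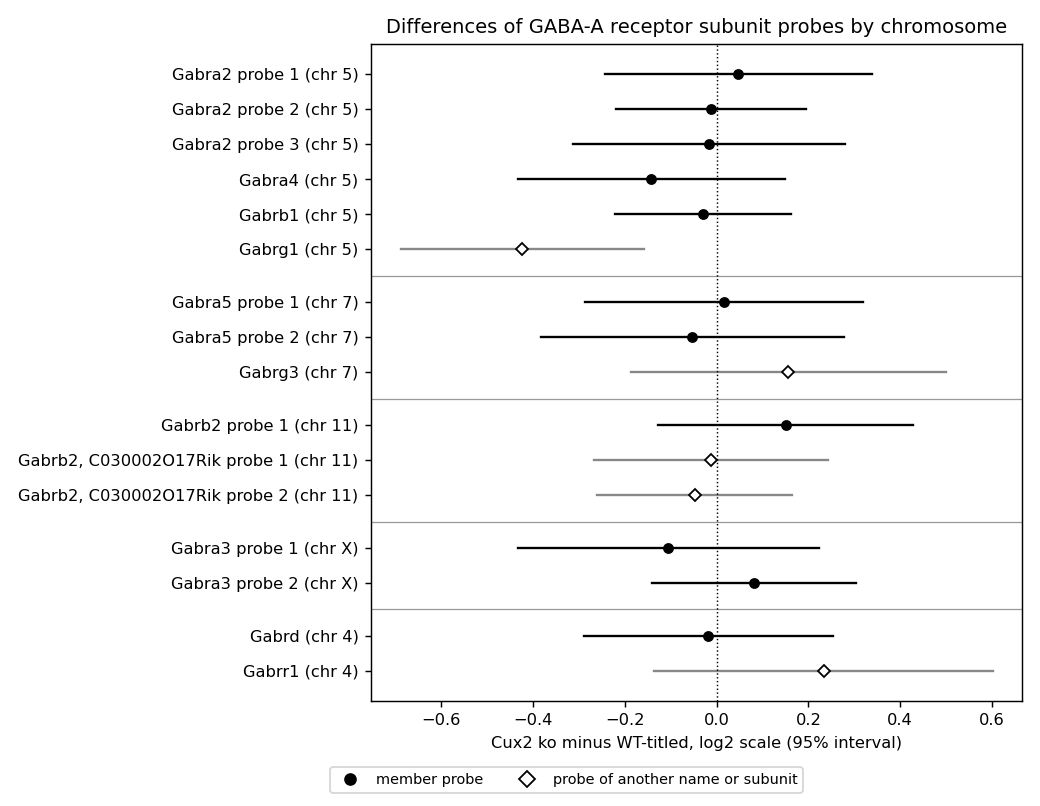
Difference of Cux2 ko minus WT-titled arrays (log2, limma, with 95% interval) for the tested member probes (filled) and for the C030002O17Rik probes of Gabrb2 and the brightest probe of Gabrg1, Gabrg3 and Gabrr1 (open), grouped by chromosome. All member intervals include 0, and Gabrg1 on chromosome 5 stands at -0.42.

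Subunit genes lie in clusters, and the members come from 5 chromosomes. In the RefSeq table of GRCm38.p6, Gabrg1, Gabra2, Gabra4 and Gabrb1 follow each other on chromosome 5, with 1 other protein-coding gene between Gabra2 and Gabra4. Gabra4 and Gabrb1 overlap at their starts. Cux2 is on the same chromosome, but 461 protein-coding genes lie between it and Gabrb1. Gabra5 lies next to Gabrg3 on chromosome 7, Gabrb2 beyond Gabra6 on chromosome 11, Gabra3 next to Gabrq on the X chromosome, and Gabrd on chromosome 4 without a subunit gene beside it. On chromosome 5 the 3 members differed by -0.14 to 0.05.

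Their neighbour Gabrg1 encodes a less common gamma subunit. It stood at 0.85, 1.15 and 0.92 on ko arrays 53, 48 and 54, against 1.50, 1.42 and 1.27 on control arrays 15, 62 and 16. The 3 knock-outs were below every control, as in 6.68% of all probes, while 6.45% had every knock-out above every control. The difference of -0.42 (95% interval -0.69 to -0.16) had an unadjusted p = 0.00718 and a limma adjusted p = 0.394, so it did not pass. It was -0.46 within slide 1 and -0.50 within slide 2, and between -0.51 and -0.36 as single arrays were left out. Without scaling between arrays it was -0.25. A second Gabrg1 probe was well above background on no array. Gabrg1 is also found in glia, and 4 of 5 astrocyte markers were lower in knock-outs, with a mean deviation of -0.22, -0.04 and -0.04 on ko arrays 53, 48 and 54, against 0.02, 0.12 and 0.15 on control arrays 15, 62 and 16. All 5 were well above background on all 6 arrays. All 6 microglia markers, well above background on all 6 arrays, were lower too, with mean deviations of -0.27, -0.30 and -0.20 on ko arrays 53, 48 and 54, against 0.25, 0.09 and 0.43 on control arrays 15, 62 and 16. Of 5 oligodendrocyte markers, all well above background on all 6 arrays, 3 were lower. Their mean deviations were -0.15, 0.10 and 0.01 on the same ko arrays. On the same control arrays the deviations were -0.17, 0.35 and -0.14. None of the astrocyte, microglia or oligodendrocyte markers passed (limma adjusted p = 0.255 to 0.998), and no list was tested. The smallest difference of a microglia marker was -0.01. The part of glia or of striatum in the Gabrg1 values was not tested.

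Of the 12 other GABA-A subunit genes listed, 11 were on the array and 6 were tested, with 0 past an adjusted p of 0.05. Gabrg3, a rarer gamma subunit, differed by 0.16 (limma adjusted p = 0.860). Its value comes from a probe that the array files call B230362M20Rik. The probe named Gabrg3 was not well above background on all arrays of either group and was not tested. Gabrr1, a rho subunit known from retina, differed by 0.23, at a dim level of -3.19 in knock-outs and -3.43 in controls. Within slide 1 Gabrg3 differed by -0.14 and Gabrr1 by -0.0018. Within slide 2 they differed by 0.51 and 0.37, so both differences changed between slides. Gabra6, Gabre, Gabrp, Gabrq and Gabrr2 were not well above background on all arrays of either group and were not tested.

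**Figure D3:**
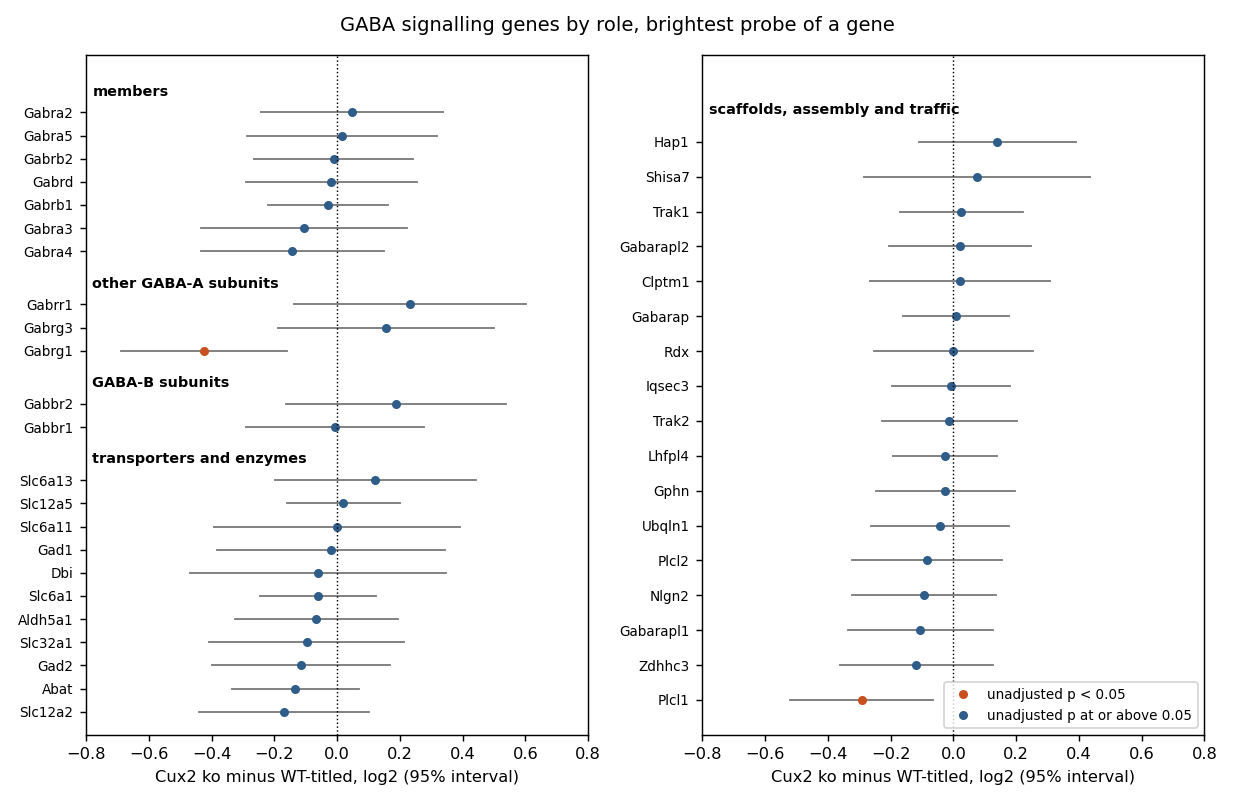
Difference of Cux2 ko minus WT-titled arrays (log2, limma, 95% interval) for the brightest tested probe of genes of GABA signalling, in 5 groups by role. Among the genes drawn, Gabrg1 at -0.42 and Plcl1 at -0.29 have an unadjusted p under 0.05, and none passed after adjustment.

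Beyond the subunits, GABA-B receptor genes, scaffolds, transporters and enzymes were examined as a list chosen by role. Over all 37 tested list genes other than the members, 14 were higher and 23 lower. At an adjusted p under 0.05, 0 were called higher and 0 lower, where 0.128% of 17126 genes passed. By their brightest probes 2 had an unadjusted p under 0.05, where 8.29% of all genes did. The median difference was -0.01 with an all-gene median of -0.01. Groups did not overlap in 3 genes (13.6% of all genes), Gabrg1, Plcl1 and Abat. Plcl1, a phospholipase-C-related protein that binds GABA-A receptors and takes part in their traffic, stood at -1.50, -1.31 and -1.28 on ko arrays 53, 48 and 54, against -0.97, -1.12 and -1.12 on control arrays 15, 62 and 16. It differed by -0.29 (limma adjusted p = 0.517), and its dimmer tested probes by -0.11 and -0.09. Abat, the GABA transaminase, was chosen here for its separate groups and differed by -0.13 (adjusted p = 0.782). Its dimmer tested probes differed by -0.10 and 0.13, so the Abat probes disagree in direction.

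The brightest probe of the scaffold gephyrin (Gphn) differed by -0.03, its dimmer tested probes by 0.21 and -0.08, and neuroligin 2 (Nlgn2) by -0.09. Of 18 genes of scaffolds, assembly and traffic 6 were higher and 12 lower, and of 11 transporters and enzymes 2 were higher and 9 lower. Over all 17126 genes 8240 were higher and 8886 lower, and the direction of these lists was not tested. By their brightest probes the GABA-making enzymes Gad1 and Gad2 differed by -0.02 and -0.11. The array files call the brightest Gad2 probe 6330404F12Rik and give the name Gad2 to the dimmer probe. The dimmer Gad2 probe averaged 1.47 in knock-outs and 1.88 in controls, a difference of -0.41 with an unadjusted p = 0.0117 and a limma adjusted p = 0.457, so the Gad2 probes disagree in size. By its 1 probe the vesicular transporter Slc32a1 differed by -0.10. The potassium-chloride transporter Slc12a5, which sets the chloride gradient that the receptors use, differed by 0.02. The brightest probe of each of these genes had a limma adjusted p of at least 0.884 (Gad2), and the lowest of the dimmer probes was 0.457 (Gad2).

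Genes with the most similar pattern were taken as those with the smallest root mean square difference of mean-centred values over the 6 arrays (5 for Gabra4). For Gabra4 these were Trnp1 (0.0181) and Pradc1 (0.0192), for Gabrd Cfap410 (0.0233), for Gabra5 Ezr (0.0159) and Bicd1 (0.0198), and for Gabrb1 Ranbp17 (0.0151) and the sodium channel subunit Scn3b (0.0163). For Gabra2 these were C130026L21Rik (0.0313) and Camta2 (0.0345), for Gabra3 Ghdc (0.0380) and Yap1 (0.0395), and for the brightest Gabrb2 probe Pdcd6 (0.0185) and Ndufb8 (0.0204). The median gene lay 0.130 to 0.209 away. Patterns this flat leave many close genes, and 6 arrays do not single out these names.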

How the data were processed

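Spot intensity values were made by the authors with Agilent Feature Extraction 9.1.3.1, per the file headers: this software subtracts background and corrects spatial trends to give the processed signal, and flags for background, saturation and outliers come from the same software. The mean spot and local background intensity are uncorrected, per the file headers. The authors' deposited log2 values have the same median (6.75) in all 6 columns. Their rank order is nearly that of the same array's processed signal (Spearman correlation 0.999972 to 0.999999). They are read as quantile normalized, which no text states. Of 45018 spots, 1639 control spots and 120 outlier-flagged spot values were left out, spots of 1 probe were averaged, and log2 values had the array's 75th percentile subtracted. The fit took the 25516 probes that the flags put well above background on every array of either group, a filter that uses the labels. The ko minus control difference was fitted in R 4.3.3 by limma 3.58.1 (lmFit, then eBayes), p-values were adjusted by Benjamini-Hochberg across these probes, and the brightest probe stood for a gene (17126 genes). Probes were named by accession through the RefSeq table of GRCm38.p6 (22951), by symbol (6659) or synonym (3109), and 8455 kept the file's name. Motifs and promoter windows were read with Python 3.11.15. Members and lists were chosen with earlier results of these data known. Named genes are all members, the other measured subunits, list genes with an unadjusted p under 0.05 and the 3 largest list differences, and others named were picked by role. A few genes of these lists enter the counts but are not reported here by name. The procedure was tested on simulated data, and the share of changes it found is not given here. Alternatives covered scaling, background, filter, variance model, weights, slide and arrays left out.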

Additional observations from a re-analysis of the deposited data

How the results depend on the processing

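No paired analysis was possible because the groups share no replicate number. In 0 of 19 alternative fits did a member probe or a listed gene pass (limma, lowest member adjusted p = 0.422, without control 15). In 1 of these fits a member had an unadjusted p under 0.05. This was the Gabrb2 probe A_52_P460687 without control 15 (limma unadjusted p = 0.0315). Signs of small differences turned, with no call involved. Without scaling between arrays, which moved the all-probe median to 0.17, the values were 0.16 (A_52_P336171) and 0.16 (A_52_P446146) for Gabra2, 0.070 for Gabra3, 0.034 for Gabra4, 0.12 for the dimmer Gabra5 probe, 0.15 for Gabrb1, 0.16 for Gabrd, and 0.13 and 0.16 for the C030002O17Rik probes. With quantile normalization the middle Gabra2 probe was at 0.0029, Gabrd at 0.023 and a C030002O17Rik probe at 0.032, and with the deposited log2 values the last 2 were at 0.016 and 0.028. The brighter Gabra5 probe was at -0.022 with median scaling, -0.017 with normexp and -0.049 with slide as a block. Array weights gave 0.052 for the dimmest Gabra2 probe and 0.0026 for the dimmer Gabra5 probe. Within slides, some member differences moved by at least the pooled SD within groups. Within slide 1 the dimmest Gabra2 and dimmer Gabra5 probes kept their sign at -0.25 and -0.36. The brighter Gabra5 probe turned to -0.25 and the probe named Gabrb2 to -0.098. Within slide 2 the middle Gabra2 probe and that Gabrb2 probe kept their sign at -0.14 and 0.32. The dimmest Gabra2 and dimmer Gabra5 probes turned to 0.17 and 0.25. Smaller turns were -0.012 (brightest Gabra2) and 0.049 (middle Gabra2) on slide 1 and 0.030 (brighter Gabra3) on slide 2. Of the C030002O17Rik probes, the dimmer turned to 0.016 on slide 1 and the brighter to 0.069 on slide 2. The cause was not tested.

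The 33 probes called on the whole array became 0 with normexp, 3 with a filter of at least 1 array, 2 without a filter and 15 with slide as a block, and lay between 2 and 62 as single arrays were left out (2 without control 15 or control 16, 13 without ko 54, 62 without ko 53). Normexp set the 5th percentile of signal at 328, 737 and 631 on ko 48, ko 54 and control 16, against 58.9 to 61.7 on the other arrays. With normexp the dim Gabra3 probe was at 0.43 and Gabra4 at -0.32. The 3 arrays named had 37, 8 and 8 spots with a local background over 2 times the array's median. Without such spots, an alternative chosen after seeing the data, as was keeping outlier-flagged spots, 42 probes were called, 0 of them members, and the middle Gabra2 probe was at 0.0100. As single arrays were left out the member differences ranged from -0.018 to 0.17, -0.048 to 0.053 and -0.070 to 0.077 (Gabra2), -0.18 to 0.044 and 0.032 to 0.15 (Gabra3), -0.23 to -0.098 (Gabra4), -0.15 to 0.051 and -0.061 to 0.15 (Gabra5), -0.075 to -0.00021 (Gabrb1), 0.076 to 0.26 (Gabrb2) and -0.12 to 0.085 (Gabrd). The C030002O17Rik probes ranged from -0.12 to 0.0048 and from -0.12 to 0.051. The order of member probes kept at least 10 of 12 places as controls were left out and 8 with normexp.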
